A study of Homo sapiens with 20 samples.

Results

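The gene-level difference between the resistance changes of 2 human tumour cell lines was measured: for each transcript cluster, the resistant minus parental change in NCI-H520 minus the resistant minus parental change in SJCRH30. NCI-H520 is a squamous lung carcinoma line and SJCRH30 an alveolar rhabdomyosarcoma line, a childhood cancer of muscle lineage. The resistant lines had been selected with prexasertib, a drug that blocks the kinase CHK1. A transcript cluster is the set of array probes that reports on the transcripts of a gene. All clusters that carry exactly 1 gene symbol were members, 17709 of 21448 on the array, and they were read from 12 of the 20 arrays of the series, 3 for each of resistant NCI-H520, parental NCI-H520, resistant SJCRH30 and parental SJCRH30. The other 8 arrays are of Rh41, a further rhabdomyosarcoma line on another value scale, and were left out of the fit.

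The resistant NCI-H520 line came from long exposure to rising prexasertib concentrations in culture, and its parental partner is the sensitive line. The SJCRH30 pair came through mice: the resistant line was grown out of a xenograft that regrew after dosing was stopped and was not held back by a second round of dosing, and the parental line out of a vehicle-treated xenograft, and both the sub-culture with drug and the labelled escalation are described for it. Each line is thus represented by 1 resistant and 1 parental population, and the arrays of a group, labelled biological replicates, measure the spread between cultures and not between independently selected lines. Whether drug was in the medium when RNA was taken is not stated. Tissue of origin, route of selection and passage through a mouse all differ between the lines, and their parts in a difference cannot be told apart.

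CHK1 is activated by ATR when replication forks stall. It holds back CDC25 phosphatases and thereby CDK2 and CDK1, which limits origin firing and delays mitosis until replication is complete. Cells that lose this brake fire excess origins, run short of nucleotides and replication protein A, and enter mitosis with damaged DNA. The E2F factors drive genes of S phase, and the MuvB complex with B-MYB and FOXM1 drives genes of G2 and mitosis, so the transcripts of these programmes report on how a culture divides.

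Array values are log2 values as deposited. Arrays of the same group correlated at 0.988 to 0.992 over all clusters, resistant with parental arrays of the same line at 0.963 to 0.975, and arrays of the different lines at 0.842 to 0.857. The 12 arrays share 1 distribution with a standard deviation of 2.99 and a highest value of 19.4, against 1.99 and 13.1 on the Rh41 arrays, so the scale may be stretched and every fold holds for the deposited values alone. Of 6 squamous markers measured, SOX2, a factor of squamous lung tumours, averaged 16.33 and 15.59 in resistant and parental NCI-H520. TRIM29 averaged 6.69 and 6.53 there, whereas KRT5, KRT14, DSG3 and PKP1 averaged under 5 in both. Of 7 rhabdomyosarcoma markers measured, MYOG and DES averaged 14.45 and 12.46 in resistant SJCRH30 and 15.33 and 12.65 in parental SJCRH30. FGFR4, CHRND and MYOD1 averaged 13.29, 11.69 and 9.52 in resistant and 12.97, 11.09 and 9.80 in parental SJCRH30. CHRNG was low there, at 6.19 and 6.67 in resistant and parental cells, and MYMK averaged under 5, at 4.12 and 4.66. Array number, and not a count of molecules, limits the precision here, and the standard error of a difference was 0.309 in the median cluster, with a range of 0.228 to 0.933.

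A difference was called at a Benjamini-Hochberg adjusted p under 0.05, over all 17709 clusters, and a size of over 1.5-fold. It was called for 4085 clusters, or 23.1% of those tested. It was higher in NCI-H520 for 2086 clusters (11.8%) and lower in NCI-H520 for 1999 clusters (11.3%), where higher means that the change in NCI-H520 lies above that in SJCRH30, whatever the sign of each. The same rule gave 1900 rises (10.7%) and 1864 falls (10.5%) for NCI-H520, and 1663 rises (9.39%) and 1631 falls (9.21%) for SJCRH30.

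Most called differences came from a change called in just 1 of the lines. Of the 4085, 3069 (75.1%) were of this kind, 1755 with the change in NCI-H520 and 1314 with the change in SJCRH30. Opposite calls, a rise in the resistant cells of one line with a fall in those of the other, made up 532 clusters (3% of all tested), of which 253 rose in NCI-H520 and fell in SJCRH30, and 279 fell in NCI-H520 and rose in SJCRH30. Another 98 differed in size while moving the same way, and 386 differed although neither change was called by itself. Changes called in the same direction in both lines without a called difference numbered 453, of which 215 were rises and 238 falls. Over all clusters the changes of the lines were not correlated (Pearson r = -0.00386, Spearman coefficient = -0.00378, across clusters, which are not independent replicates).

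**Figure D1:**
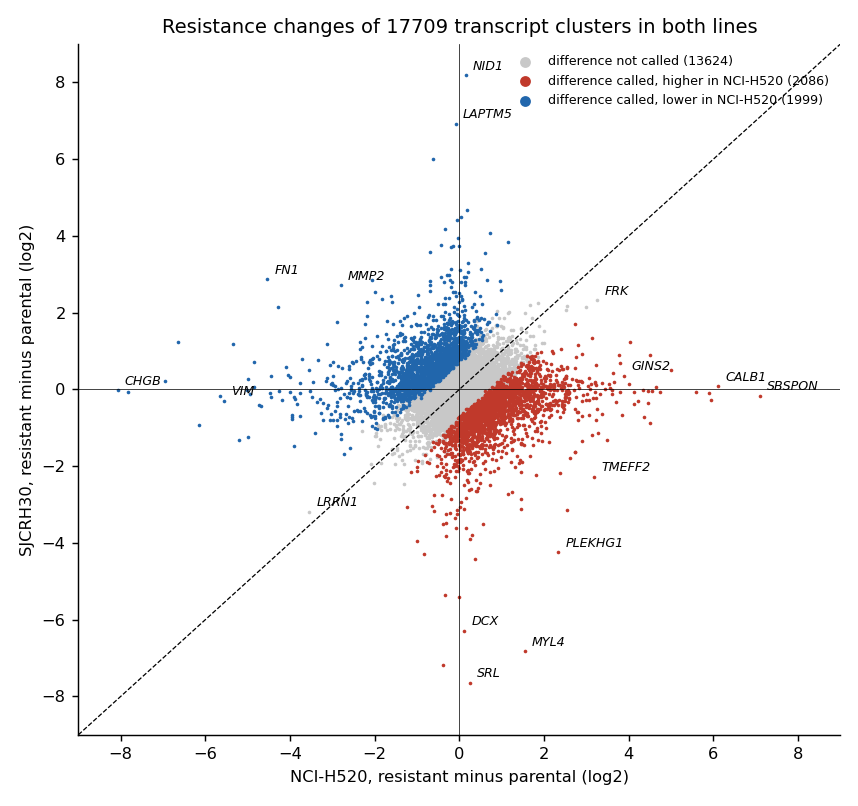
Resistant minus parental log2 change of each transcript cluster in NCI-H520 (horizontal) and in SJCRH30 (vertical); points are clusters, the dashed line marks equal changes, red points have a called difference higher in NCI-H520 (2086) and blue points one lower in NCI-H520 (1999). The largest changes lie along the axes, with NID1 and LAPTM5 high on the vertical axis and CHGB far left on the horizontal one, and few points lie far out along the dashed line.

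The largest positive differences belonged partly to genes lost from resistant SJCRH30. MYL4, the myosin light chain of embryonic muscle and atrium, read 5.94, 5.99 and 5.0 on resistant and 3.88, 4.14 and 4.29 on parental NCI-H520 arrays. In SJCRH30 it read 6.0, 5.27 and 4.93 on resistant and 12.57, 12.05 and 12.04 on parental arrays, so that it rose 2.9-fold in one line and fell 113-fold in the other. Its difference of 8.36 log2 units (95% interval 7.50 to 9.22, adjusted p = 2.89e-10) was the largest positive one. SRL, which encodes sarcalumenin, which binds calcium inside the sarcoplasmic reticulum, was lost in the same way from SJCRH30, at 3.67, 3.17 and 2.93 on resistant against 11.03, 11.06 and 10.59 on parental arrays. NCI-H520 had little SRL signal throughout (2.89 to 3.32), and the difference was 7.89 (7.26 to 8.51, adjusted p = 1.74e-11).

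PCP4, a calmodulin-binding peptide of neurons, and DCX, the microtubule-associated doublecortin of migrating neurons, were further SJCRH30 losses. PCP4 read 5.05, 5.44 and 5.56 in resistant and 12.98, 12.93 and 11.66 in parental SJCRH30, and 4.51 to 5.58 on the 6 NCI-H520 arrays. Its difference was 6.79 (5.89 to 7.70, adjusted p = 6.05e-09). DCX kept a measurable level after its fall, with 8.38, 8.35 and 7.60 in resistant and 14.57, 14.39 and 14.25 in parental SJCRH30, and its difference was 6.40 (5.68 to 7.12, adjusted p = 7.66e-10).

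Other large positive differences were gains in resistant NCI-H520 that SJCRH30 lacked. SBSPON, a secreted matrix protein with a thrombospondin repeat, read 12.35, 12.56 and 12.43 on resistant against 4.55, 5.81 and 5.70 on parental NCI-H520 arrays, with a difference of 7.26 (6.45 to 8.08, adjusted p = 7.66e-10). CEACAM5, the carcinoembryonic antigen, read 10.42, 10.40 and 10.10 against 4.15, 4.46 and 4.45, a 62-fold rise, and did not pass 4.25 on any SJCRH30 array. CALB1, the calcium buffer calbindin, read 13.46, 13.41 and 13.16 on resistant against 7.14, 7.55 and 7.01 on parental NCI-H520 arrays. In each of these genes the resistant NCI-H520 arrays stood clear of all others. Separation from the parental NCI-H520 arrays was a condition for naming these genes.

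THEMIS, a signalling protein of thymocyte selection, rose 59.9-fold in resistant NCI-H520, at 9.34, 9.52 and 9.73 on resistant against 3.57, 4.04 and 3.28 on parental arrays. The 6 leukocyte markers measured stayed low in that line, with a mean over markers of 4.43 to 4.84 on resistant and 4.43 to 4.58 on parental NCI-H520 arrays, and PTPRC, the pan-leukocyte marker, at 4.61 and 4.31. DKK2, a secreted modulator of Wnt receptors, was already measurable in parental NCI-H520 and rose 48.3-fold, to 15.56, 15.51 and 15.88 on resistant against 10.29, 9.95 and 9.93 on parental arrays, with 4.95 to 6.05 over the 6 SJCRH30 arrays. Its difference was 5.67 (4.87 to 6.46, adjusted p = 1.09e-08).

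The largest negative differences showed the mirror image, losses in NCI-H520 and gains in SJCRH30. CHGB, chromogranin B of secretory granules, read 5.59, 6.03 and 5.41 in resistant and 13.97, 13.40 and 13.87 in parental NCI-H520, and 4.12 to 4.97 over the SJCRH30 arrays. Its difference of -8.05 (-8.81 to -7.28, adjusted p = 1.47e-10) was the largest negative one. SPP1, the secreted phosphoprotein osteopontin, read 5.01, 4.78 and 5.46 against 12.87, 13.06 and 12.79 in the same comparison, with a difference of -7.76 (-8.63 to -6.89). OPN3, an opsin expressed outside the eye, fell 99.9-fold in NCI-H520, and its difference was -7.87 (-8.61 to -7.14). It rose 2.35-fold in SJCRH30, but at low signal, with means of 5.37 in resistant and 4.14 in parental cells. TSPAN11, a tetraspanin, fell 125-fold in NCI-H520, and SERPINI1, the protease inhibitor neuroserpin, fell 40.4-fold there.

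Gains in SJCRH30 that NCI-H520 lacked were led by NID1, which encodes nidogen, a linker of laminin and collagen IV in basement membranes. NID1 read 4.82, 4.10 and 4.28 on resistant and 4.82, 3.67 and 4.28 on parental NCI-H520 arrays, whose ranges overlap. In SJCRH30 it read 10.87, 11.31 and 10.98 on resistant against 2.90, 2.72 and 2.98 on parental arrays, a 291-fold rise, and the difference was -8.04 (-8.81 to -7.27, adjusted p = 1.47e-10). ERVW-1, the retroviral envelope syncytin-1 that fuses trophoblast cells, read 13.36, 13.24 and 12.59 against 7.63, 6.63 and 6.93 in the same SJCRH30 groups, with 5.26 to 6.88 in NCI-H520 and a difference of -6.62 (-7.63 to -5.61).

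LAPTM5, a lysosomal membrane protein known from blood cells, rose 121-fold in resistant SJCRH30, to 14.35, 14.07 and 13.76 against 7.40, 7.26 and 6.76 in parental cells, and was at 3.35 to 4.17 in NCI-H520. Its difference was -7.01 (-7.77 to -6.25, adjusted p = 5.38e-10). The mean over 6 leukocyte markers, LAPTM5 among them, was 6.22 to 6.52 on resistant and 4.85 to 5.23 on parental SJCRH30 arrays. No other marker of that list was called in SJCRH30: PTPRC averaged 4.52 and 4.36, CD53 4.26 and 4.02, and CD68 4.72 and 4.38 in resistant and parental cells. Of the 4085 called differences, 961 had some group mean under 5, and 147 (3.6%) had all 4 means under 5, against 5071 (28.6%) of all clusters.

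**Figure D2:**
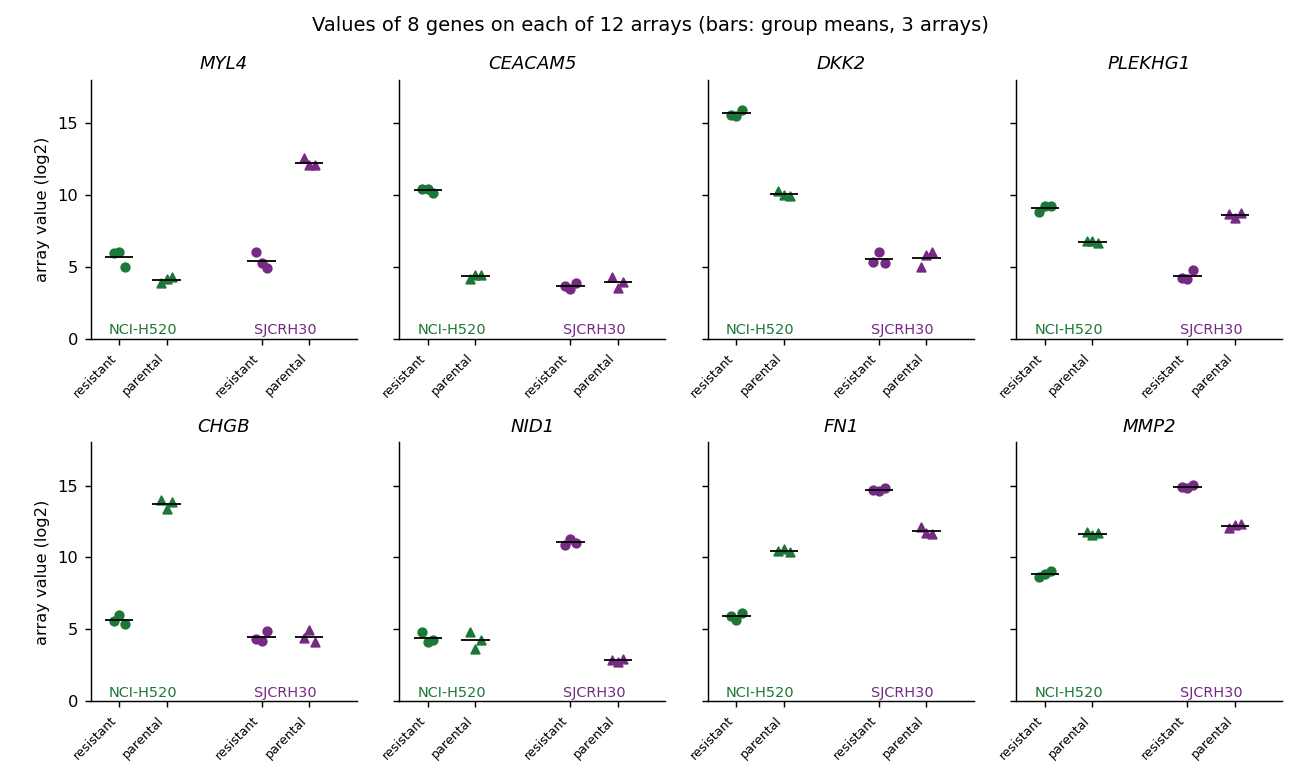
Log2 array values of 8 genes on each of the 12 arrays, with resistant cells (circles) left of parental cells (triangles), NCI-H520 in green and SJCRH30 in purple, and bars at the mean of 3 arrays. MYL4 and PLEKHG1 move oppositely in the lines, CEACAM5 and DKK2 rise in NCI-H520 alone, CHGB falls in NCI-H520 alone, NID1 rises in SJCRH30 alone, and FN1 and MMP2 fall in NCI-H520 and rise in SJCRH30.

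Opposite calls were next taken by the smaller of the 2 changes, with 6 genes in each orientation. Among those down in NCI-H520, FN1, which encodes fibronectin, read 5.93, 5.68 and 6.14 in resistant and 10.44, 10.57 and 10.36 in parental NCI-H520, a 23.3-fold fall. In SJCRH30 it read 14.68, 14.61 and 14.81 in resistant and 12.15, 11.69 and 11.64 in parental cells, a 7.34-fold rise. MMP2, the gelatinase that cleaves collagen IV, moved by about the same factor each way, a 6.98-fold fall in NCI-H520 (8.66, 8.89 and 9.04 against 11.77, 11.56 and 11.67) and a 6.59-fold rise in SJCRH30 (14.88, 14.83 and 15.07 against 12.05, 12.23 and 12.34). The differences were -7.42 (-7.99 to -6.84, adjusted p = 1.74e-11) for FN1 and -5.53 (-6.06 to -4.99, adjusted p = 1.47e-10) for MMP2. Parental cells of the 2 lines had lain within 2 log2 units of each other in both genes, and resistant cells lay 8.78 and 6.06 units apart.

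F13A1, the catalytic subunit of the clotting factor that crosslinks fibronectin and fibrin, fell 19.4-fold in NCI-H520 and rose 4.47-fold in SJCRH30. IFI16, a nuclear sensor of DNA, read 5.18, 5.28 and 5.70 in resistant against 7.65, 7.07 and 7.63 in parental NCI-H520, and 10.76, 10.43 and 10.93 in resistant against 8.07, 7.49 and 7.99 in parental SJCRH30. Its difference was -4.92 (-5.60 to -4.24, adjusted p = 9.53e-09). The glycosyltransferase GALNT13 and the adhesion receptor ADGRL3 differed by -4.44 and -4.53. Of 6 fibroblast markers measured, THY1 rose in SJCRH30, averaging 8.30 in resistant and 5.59 in parental cells. The others were not called there, and the mean over the 6 was 6.29 to 6.45 on resistant and 5.93 to 6.04 on parental SJCRH30 arrays. PDGFRA averaged 9.16 and 9.21, and DCN and LUM, which define fibroblasts, averaged 5.01 and 4.22 in resistant and 4.99 and 3.82 in parental SJCRH30.

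In the other orientation, PLEKHG1, a protein with a pleckstrin homology domain, read 8.78, 9.22 and 9.23 in resistant against 6.81, 6.77 and 6.63 in parental NCI-H520. In SJCRH30 it read 4.20, 4.14 and 4.75 in resistant against 8.69, 8.37 and 8.74 in parental cells, which gave a difference of 6.57 (5.96 to 7.19, adjusted p = 1.47e-10). FRMD3, a FERM-domain protein of the membrane skeleton, rose 5.85-fold in NCI-H520 and fell 8.8-fold in SJCRH30, and TMEFF2, a transmembrane protein with follistatin domains, rose 9.09-fold and fell 4.84-fold. The heparan sulfate 3-O-sulfotransferases HS3ST3B1 and HS3ST3A1, both on chromosome 17, moved together, with differences of 4.56 (3.96 to 5.16) and 4.03 (3.40 to 4.65). These paralogues are similar in sequence, and whether their probes tell them apart was not tested. CD9, a tetraspanin of the cell surface, rose 6.11-fold to 14.86, 15.64 and 15.41 in resistant NCI-H520, and fell 3.42-fold in SJCRH30.

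Changes called in the same direction in both lines numbered 551, close to the 532 opposite calls. FRK, a Src-family kinase, rose 9.55-fold in NCI-H520 (8.76, 8.46 and 8.55 in resistant against 5.71, 5.69 and 4.60 in parental cells) and 5.03-fold in SJCRH30 (7.38, 7.01 and 6.90 against 4.43, 5.08 and 4.80). Its difference of 0.92 was not called (adjusted p = 0.0917). The 95% interval of 0.13 to 1.72 was wide but lay above 0, on the side of a larger rise in NCI-H520. MAPK10, the stress kinase JNK3, rose 5.8-fold and 4.47-fold, and its difference was 0.38 (-0.28 to 1.03). PPARGC1A, the PGC-1alpha coactivator of mitochondrial genes, rose 8.01-fold and 4.44-fold. The chemokine CCL20 rose 5.77-fold and 4.2-fold.

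Among shared falls, LRRN1, a leucine-rich repeat protein of neurons, dropped the most of the 4 named, 11.7-fold in NCI-H520 and 9.13-fold in SJCRH30, with a difference of -0.36 (-1.15 to 0.43). HMCN1, the matrix protein hemicentin, fell 4.08-fold and 5.44-fold. ID1, an inhibitor of basic helix-loop-helix factors, fell 4.25-fold and 3.85-fold, and its difference of -0.14 had an interval of -0.78 to 0.50. AKR1C3, a ketosteroid reductase, fell 3.61-fold and 3.8-fold, and the interval of its difference, -0.52 to 0.67, leaves room for unequal falls of up to 0.67 log2 units. For PPARGC1A the parental SJCRH30 arrays ranged from 5.13 to 7.02, and its difference of 0.85 became a called one without parental SJCRH30 replicate 1, at 1.28 log2 units.

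Gene lists were then read for their roles, 29 lists with 748 measured genes in all, each by the count of members called in each direction and by the median difference beside the 11.8% higher, 11.3% lower and median of 0.00254 over all clusters. The lists with the largest positive medians were those of cell division and of DNA replication, the ATR-CHK1 checkpoint, oxidative phosphorylation, epithelial genes, and glycolysis and hypoxia. The most negative median, -0.56, belonged to mesenchymal genes.

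**Figure D3:**
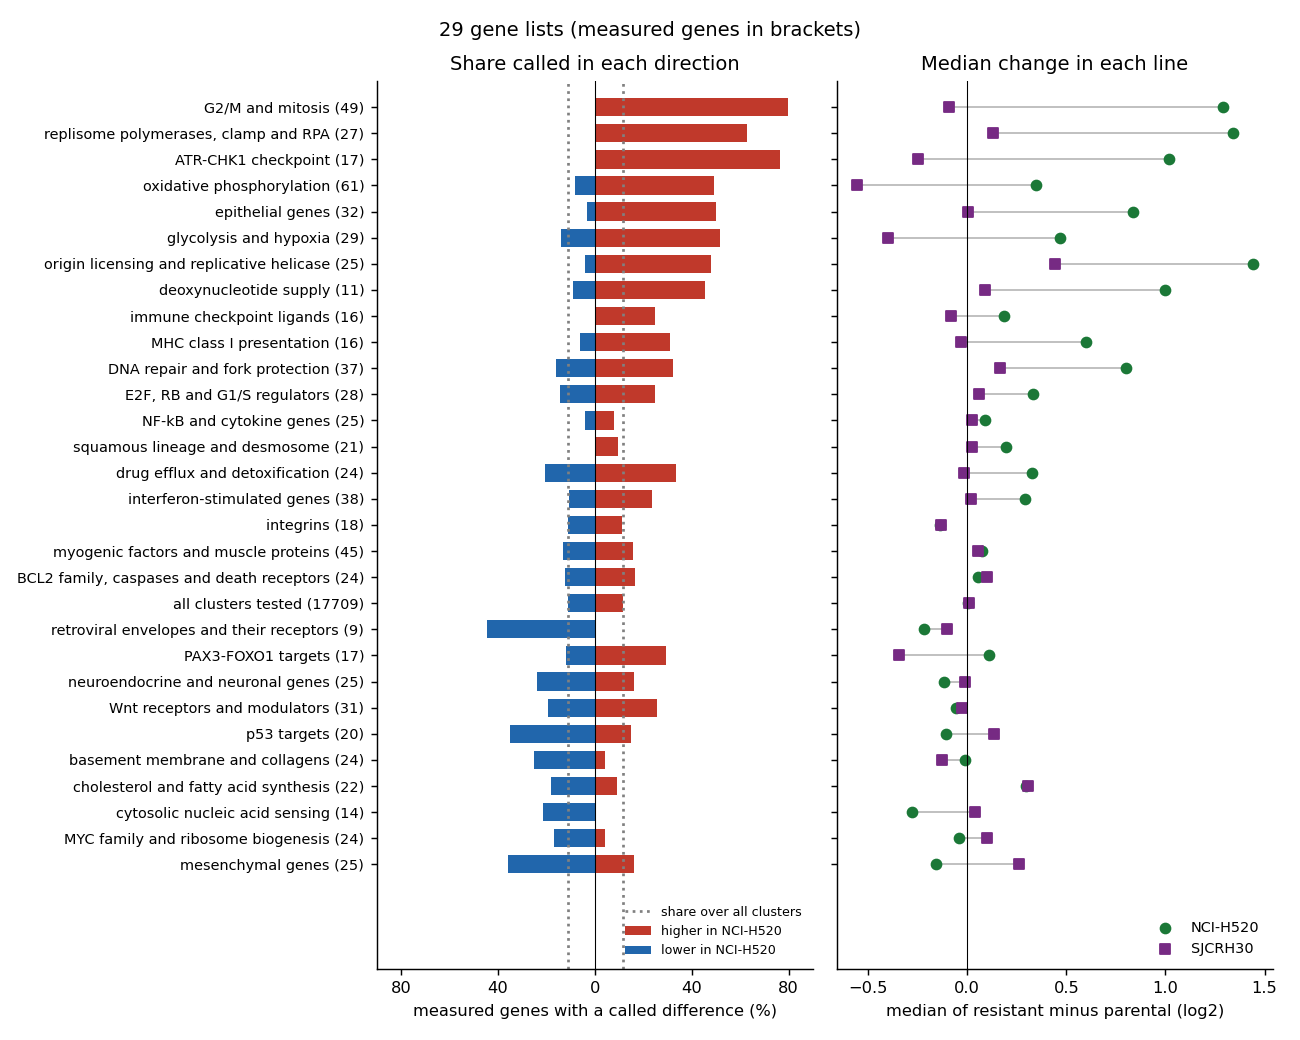
Left, percent of the measured genes of 29 lists with a called difference, higher in NCI-H520 in red to the right and lower in NCI-H520 in blue to the left, with dotted lines at the shares over all clusters (11.8% and 11.3%); right, median resistant minus parental log2 change of each list in NCI-H520 (green circles) and SJCRH30 (purple squares). In G2/M and mitosis 39 of 49 genes were called higher and the medians stood at 1.29 in NCI-H520 and -0.093 in SJCRH30.

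Genes of G2 and mitosis rose in NCI-H520 and not, as a group, in SJCRH30. Of 49 measured, 45 rose and none fell in resistant NCI-H520, whereas 7 rose and 12 fell in resistant SJCRH30. The difference was called higher in NCI-H520 for 39 (79.6%) and lower for none, with a median of 1.29 (range -0.111 to 3.51). CKS2, the small subunit that docks on cyclin-dependent kinases, read 14.71, 14.55 and 14.45 in resistant against 11.02, 10.91 and 11.10 in parental NCI-H520, and 12.30, 12.48 and 12.53 against 12.54, 12.34 and 12.29 in SJCRH30, whose groups overlapped. Its difference was 3.51 (3.0 to 4.03, adjusted p = 1.77e-08).

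Opposite calls within the list covered 11 of 49 genes, against 3% of all clusters. They were the mitotic kinase CDK1, its cyclins CCNA2, CCNB1 and CCNB2, the transcription factor MYBL2, the kinesins KIF11, KIF20A and KIF4A, the kinetochore protein NDC80, the securin PTTG1 and the condensin subunit NCAPD2. MYBL2, which encodes B-MYB, read 9.44, 9.13 and 9.62 in resistant against 8.0, 7.29 and 7.67 in parental NCI-H520. In SJCRH30 it read 11.19, 10.79 and 10.84 in resistant against 12.34, 12.36 and 12.45 in parental cells, with a difference of 3.19 (2.56 to 3.81, adjusted p = 5.7e-07). CCNA2, the cyclin of S phase and G2, rose 1.75-fold in NCI-H520 and fell 2.11-fold in SJCRH30.

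Replication genes moved mainly in NCI-H520. Of 27 polymerase, clamp and replication protein A genes, 17 were called higher (63%) and none lower, with a median of 1.27, and of 25 genes of origin licensing and the replicative helicase, 12 were called higher (48%) and 1 lower, ORC5, with a median of 0.76. GINS2, a subunit of the CMG helicase, read 12.66, 12.27 and 12.43 in resistant against 8.72, 8.56 and 8.40 in parental NCI-H520, a 14.8-fold rise, and 9.74 to 10.24 over the SJCRH30 arrays. PCNA, the sliding clamp, read 12.18, 12.33 and 12.07 against 9.30, 8.86 and 9.24 in the same NCI-H520 groups, and 12.95, 13.27 and 13.62 against 13.09, 13.20 and 12.68 in SJCRH30. The differences were 3.53 (3.01 to 4.06, adjusted p = 2.04e-08) and 2.77 (2.13 to 3.41, adjusted p = 3.24e-06). FEN1, the flap endonuclease, and CDC45, a further helicase subunit, rose 4.89-fold and 5.39-fold in NCI-H520 and were not called in SJCRH30.

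Some replication genes rose in both lines. In the licensing list 8 of 25 genes rose in SJCRH30 and 6 were called in the same direction in both lines. RPA1, the large subunit of replication protein A, averaged 12.72 in resistant and 11.27 in parental NCI-H520, and 12.60 in resistant and 11.01 in parental SJCRH30, so that it rose 2.73-fold and 2.99-fold, with a difference of -0.13 (-0.73 to 0.46, adjusted p = 0.798). RPA2 rose 2.5-fold in NCI-H520, and its difference of 0.92 (0.23 to 1.60) stopped short of the threshold at an adjusted p of 0.051.

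The suppliers of deoxynucleotides had 5 of 11 genes called higher and 1 lower. RRM2, the limiting subunit of ribonucleotide reductase, read 10.47, 10.70 and 10.82 in resistant against 8.28, 8.39 and 7.94 in parental NCI-H520, and 13.77, 13.72 and 13.81 against 14.18, 14.12 and 13.88 in SJCRH30. Its difference was 2.75 (2.20 to 3.31, adjusted p = 7.05e-07). TK1, the thymidine kinase of S phase, rose 4.72-fold in NCI-H520, and the 1 gene called lower was SAMHD1, which degrades deoxynucleotides and fell 1.91-fold in NCI-H520.

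Of the 49 G2 and mitosis genes, 37 in resistant cells and 48 in parental cells were lower in NCI-H520, and the median gap, NCI-H520 minus SJCRH30, was -0.497 in resistant and -1.93 in parental cells. The gap was narrower in resistant cells for 41 of the 49, for 20 of the 27 replisome genes and for 16 of the 25 licensing genes, against 50.7% of all clusters. The gaps and the differences come from the same arrays, so this is a description and not a further test. Among all 4085 called differences, 52.7% had a narrower gap in resistant cells, and in 314 a gap called in both resistant and parental cells had opposite signs.

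**Figure D4:**
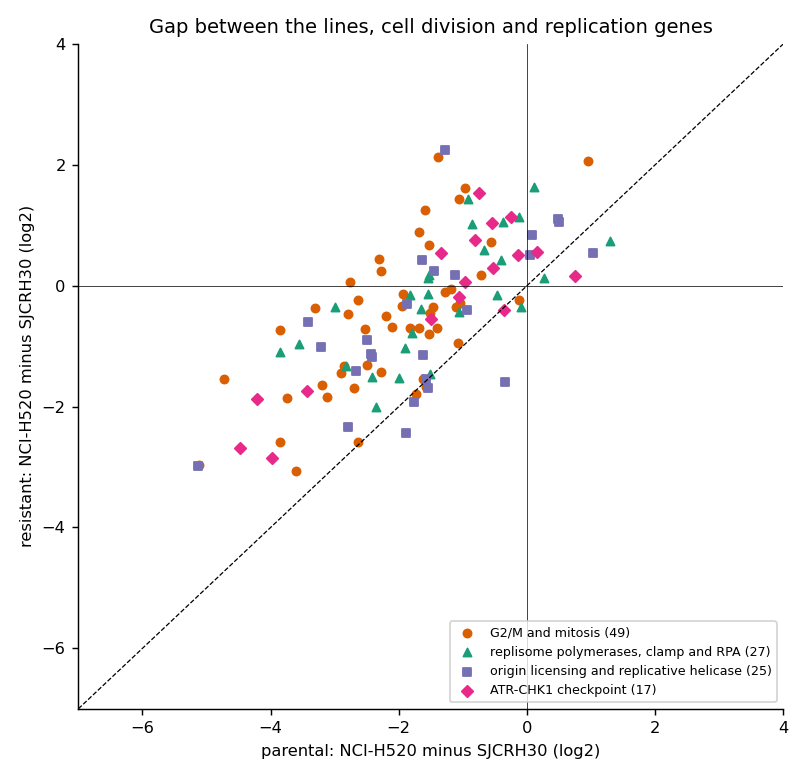
Log2 gap between the lines (NCI-H520 minus SJCRH30) in resistant cells (vertical) against that in parental cells (horizontal) for genes of 4 lists; points on the dashed line have equal gaps. Most points lie above the dashed line and left of 0, and for G2/M and mitosis the median gap is -0.497 in resistant and -1.93 in parental cells.

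The promoters of these genes were searched for the letters of sites that E2F and MuvB complexes are known to bind, and 3 promoters of replication and E2F genes and 1 of a mitotic gene are shown because their genes carry the largest differences of their lists. Each is the RefSeq window of 250 bases before and 50 bases after the gene's start in build GRCh38.p14, 5′ to 3′ on the strand of the gene. Capitals, which may be the reverse complement of the motif, mark E2F sites in GINS2 (chr16:85688905-85689204, minus strand), PCNA (chr20:5126573-5126872, minus strand) and E2F1 (chr20:33686336-33686635, minus strand), and mark the CHR element and the CCAAT boxes in CKS2 (chr9:89310945-89311244, plus strand).
GINS2: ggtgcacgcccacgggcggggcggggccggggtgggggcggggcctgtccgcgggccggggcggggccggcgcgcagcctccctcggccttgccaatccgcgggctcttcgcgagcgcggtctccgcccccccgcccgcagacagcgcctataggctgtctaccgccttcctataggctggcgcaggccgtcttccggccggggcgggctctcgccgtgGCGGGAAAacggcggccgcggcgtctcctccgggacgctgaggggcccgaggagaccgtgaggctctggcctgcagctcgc
PCNA: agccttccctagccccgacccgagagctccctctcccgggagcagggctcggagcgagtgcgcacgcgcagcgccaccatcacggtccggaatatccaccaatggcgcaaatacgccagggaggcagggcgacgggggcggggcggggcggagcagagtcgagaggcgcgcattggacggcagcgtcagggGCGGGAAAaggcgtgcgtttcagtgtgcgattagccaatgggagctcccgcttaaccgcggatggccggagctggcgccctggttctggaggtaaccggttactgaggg
E2F1: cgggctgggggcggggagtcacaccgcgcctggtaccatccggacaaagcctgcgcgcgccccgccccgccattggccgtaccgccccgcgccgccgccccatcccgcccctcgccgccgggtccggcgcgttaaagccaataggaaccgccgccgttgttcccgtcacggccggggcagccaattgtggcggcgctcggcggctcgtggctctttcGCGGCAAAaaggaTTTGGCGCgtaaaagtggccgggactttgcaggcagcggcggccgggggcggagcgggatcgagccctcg
CKS2: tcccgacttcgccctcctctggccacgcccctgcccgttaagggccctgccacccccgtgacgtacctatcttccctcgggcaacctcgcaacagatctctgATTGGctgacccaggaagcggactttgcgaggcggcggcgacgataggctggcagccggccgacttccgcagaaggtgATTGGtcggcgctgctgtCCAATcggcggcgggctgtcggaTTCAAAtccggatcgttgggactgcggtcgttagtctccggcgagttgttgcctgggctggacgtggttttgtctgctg

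The E2F sites begin at -31 in GINS2, at -59 in PCNA and at -33 and -20 in E2F1, counted from the start, and the CHR element of CKS2 begins at -29 with 3 CCAAT boxes before it. An E2F site was searched on both strands as TTTCCCGC, TTTGGCGC, TTTCGCGC or TTTGCCGC, a CHR element as TTTGAA or TTCGAA, and a CCAAT box as CCAAT (both strands in each case). No motif contains another, though neighbouring matches can share bases. Of 17687 symbols, 14250 had a promoter window. An E2F site stood in 7.01% of 1768 promoters of genes called higher, 4.42% of 1653 called lower and 4.44% of all, and in 47.6% of 21 licensing genes and 34.8% of 23 replisome genes. A CHR element stood in 14.5% of promoters of genes called higher, 11.6% of those called lower, 13.4% of all and 74.4% of 43 genes of G2 and mitosis. CCAAT boxes stood in 44%, 34.7% and 36.4% of the higher, lower and all promoters. A match is a description of letters and not of binding.

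Among G1/S regulators the picture was mixed, with 7 of 28 called higher and 4 lower (median 0.21). E2F1, the activator of S-phase genes, read 8.78, 8.95 and 8.71 in resistant against 5.16, 5.76 and 5.82 in parental NCI-H520, and 10.09, 10.10 and 10.27 against 10.35, 10.76 and 10.06 in SJCRH30. Its difference was 3.47 (2.82 to 4.12, adjusted p = 3.23e-07). CCNE2, cyclin E2, rose 9.38-fold in NCI-H520 and 1.56-fold in SJCRH30 (difference 2.58, 2.0 to 3.16), and CDK2, the kinase it activates, rose 4.34-fold in NCI-H520 and was not called in SJCRH30. CCNE1, cyclin E1, differed by just 0.25 (-0.28 to 0.78, adjusted p = 0.546).

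E2F7, E2F8 and E2F5 were called in opposite directions in the lines. E2F7, a repressor of E2F targets, averaged 8.21 in resistant and 7.21 in parental NCI-H520 and 8.94 in resistant and 9.79 in parental SJCRH30, with a difference of 1.85 (1.20 to 2.50). E2F5, a partner of the pocket proteins in quiescent cells, went the other way, with a 2.66-fold fall in NCI-H520, a 2.79-fold rise in SJCRH30 and a difference of -2.89 (-3.74 to -2.03, adjusted p = 4.63e-05). CDKN1A, the CDK inhibitor p21, read 3.68, 3.92 and 4.71 in resistant against 5.38, 6.75 and 6.06 in parental NCI-H520, and 8.76, 8.85 and 8.98 against 8.65, 8.75 and 8.62 in SJCRH30. Its difference was -2.15 (-3.02 to -1.28, adjusted p = 0.000891). RB1 and FBXW7, the ubiquitin ligase subunit for cyclin E, were not called, with differences of 0.26 (-0.27 to 0.80) and 0.01 (-0.71 to 0.73).

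In the ATR-CHK1 checkpoint 13 of 17 genes were called higher (76.5%) and none lower, with a median of 1.14. CHEK1, the target of the drug, rose in both lines but more in NCI-H520. It read 11.82, 11.96 and 11.93 in resistant against 10.20, 10.34 and 9.93 in parental NCI-H520, a 3.35-fold rise, and 11.82, 11.74 and 11.93 against 11.16, 11.04 and 11.16 in SJCRH30, a 1.64-fold rise. Resistant cells of the lines thus reached the same range of values. The difference was 1.03 (0.52 to 1.55, adjusted p = 0.00466), and with the values mapped onto the narrower Rh41 scale it was 0.56, under 1.5-fold, and not called.

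CDC25A, the phosphatase that CHK1 marks for destruction, read 7.37, 7.72 and 7.60 in resistant against 4.97, 4.75 and 5.62 in parental NCI-H520, and 9.19 to 9.69 over the SJCRH30 arrays, with a difference of 2.33 (1.67 to 2.99, adjusted p = 2.9e-05). TIPIN, which steadies stalled forks, rose 3.89-fold in NCI-H520, and RAD1 and TOPBP1, which load and activate the checkpoint at DNA, rose in NCI-H520 and fell in SJCRH30. ATR itself was not called (-0.60, -1.42 to 0.22, adjusted p = 0.313). Calls for WEE1, the kinase that inhibits CDK1, and CHEK2, the checkpoint kinase of double-strand breaks, hung on single arrays. WEE1 differed by 1.14 (0.41 to 1.87, adjusted p = 0.0235), by 1.01 without parental NCI-H520 replicate 1, by 0.88 without resistant NCI-H520 replicate 1 and by 1.03 without parental SJCRH30 replicate 1, none of which passed. CHEK2 differed by 0.88 (0.23 to 1.53, adjusted p = 0.0466) and missed the threshold in 8 of 12 fits that left out 1 array, at 0.71 to 0.89: parental NCI-H520 replicates 1 and 2, resistant NCI-H520 replicates 1 and 2, parental SJCRH30 replicates 2 and 3, and resistant SJCRH30 replicates 1 and 3.

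DNA repair genes were called both ways, 12 of 37 higher and 6 lower (median 0.29). SLFN11, a helicase-like protein that blocks stalled forks and is known to raise sensitivity to DNA-damaging drugs, read 7.71, 7.91 and 6.93 in resistant against 6.03, 5.06 and 5.58 in parental NCI-H520. In SJCRH30 it read 5.04, 4.91 and 5.05 in resistant against 6.56, 6.14 and 6.33 in parental cells, for opposite calls and a difference of 3.31 (2.53 to 4.08, adjusted p = 4.14e-06). EXO1, the exonuclease of resection, rose 4.58-fold in NCI-H520 alone. ATM, the kinase of double-strand breaks, was the opposite call in the other orientation, a 2.02-fold fall in NCI-H520 and a 1.6-fold rise in SJCRH30, with a difference of -1.69 (-2.29 to -1.10). BRCA1 was not called, at 0.57 (-0.08 to 1.21).

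Genes of oxidative phosphorylation split the lines in both directions. Of 61 measured, 24 rose and 4 fell in NCI-H520, while 3 rose and 26 fell in SJCRH30. The difference was called higher for 30 (49.2%) and lower for 5 (8.2%), with a median of 0.877. Opposite calls covered 12 of the 61 genes, against 3% of all clusters. All 12 were up in NCI-H520 and down in SJCRH30: NDUFA1, NDUFA8, NDUFA13, NDUFB2, NDUFB4, NDUFB7 and NDUFB8 of complex I, UQCRC1 of complex III, COX6A1, COX6B1 and COX7B of complex IV, and ATP5MC1 of the ATP synthase. NDUFB4 read 14.29, 14.51 and 13.83 in resistant against 12.48, 12.94 and 12.86 in parental NCI-H520, and 9.30, 9.46 and 8.94 against 11.73, 11.34 and 11.07 in SJCRH30, for a difference of 3.60 (2.91 to 4.29, adjusted p = 4.27e-07).

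By complex, 15 of 31 complex I genes, 7 of 10 complex IV genes, 3 of 6 complex III genes and 4 of 11 ATP synthase genes were called higher. Complex II, which also works in the citric acid cycle, had 1 of 3 higher, SDHD, and 2 lower, SDHA and SDHC. The median difference was 1.4 in complex IV, 0.845 in complex I and -0.882 in complex II. ATP5F1A, the alpha subunit of the ATP synthase, was the largest exception: it read 12.03, 11.65 and 11.68 in resistant against 13.54, 13.82 and 13.65 in parental NCI-H520, and rose by 0.45 in SJCRH30 without a call. Its difference was -2.32 (-2.88 to -1.77, adjusted p = 4.97e-06).

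Glycolysis and hypoxia genes ran the same way, with 15 of 29 called higher (51.7%) and 4 lower and a median of 0.801. In NCI-H520 10 rose and 5 fell, and in SJCRH30 2 rose and 9 fell. NDRG1, a stress-responsive gene of hypoxic cells, read 8.19, 8.27 and 8.42 in resistant against 4.42, 4.14 and 4.84 in parental NCI-H520, and fell 1.6-fold in SJCRH30, with a difference of 4.50 (3.84 to 5.17, adjusted p = 1.86e-08). BNIP3, a mitophagy receptor, got its difference of 3.03 (2.48 to 3.57) from SJCRH30, where it read 9.35, 9.13 and 9.55 in resistant against 12.17, 12.02 and 11.77 in parental cells. The glycolytic enzymes GPI and PGAM1 and the histone demethylase KDM3A were opposite calls with NDRG1. VEGFA, the angiogenic growth factor, was called lower, with a 2.4-fold fall in NCI-H520 and a difference of -1.21 (-1.84 to -0.57).

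Epithelial genes were higher in 16 of 32 (50%) and lower in 1, the junction scaffold TJP1, with a median difference of 0.867. CDH1, E-cadherin, read 11.08, 11.74 and 11.00 in resistant against 8.37, 8.03 and 7.83 in parental NCI-H520, and 3.26 to 3.53 over all SJCRH30 arrays. Its difference was 3.25 (2.62 to 3.89, adjusted p = 5.52e-07). CEACAM6, an adhesion molecule related to CEACAM5, rose 21.8-fold in NCI-H520. EPCAM and the keratins KRT18 and KRT19 also fell in SJCRH30, which made them opposite calls.

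Mesenchymal genes were lower in 9 of 25 (36%) and higher in 4 (16%), with a median difference of -0.56 that ran from -0.37 without resistant NCI-H520 replicate 2 to -0.89 without resistant NCI-H520 replicate 1. VIM, the intermediate filament vimentin, read 4.07, 4.46 and 4.65 in resistant against 9.97, 10.06 and 9.86 in parental NCI-H520, a 47.4-fold fall, and 14.35, 14.42 and 14.41 against 14.67, 14.63 and 14.75 in SJCRH30. ZEB1, a repressor of E-cadherin, read 4.35, 4.08 and 4.97 against 9.44, 9.10 and 9.43 in NCI-H520, and 14.16, 14.23 and 14.23 against 13.63, 13.30 and 13.56 in SJCRH30. The differences were -5.28 (-5.82 to -4.73, adjusted p = 2.89e-10) and -5.57 (-6.21 to -4.92, adjusted p = 1.07e-09). With FN1, MMP2 and N-cadherin (CDH2), ZEB1 was 1 of 4 genes of the list that fell in NCI-H520 and rose in SJCRH30.

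The exceptions were TPM1, S100A4, SNAI1 and CCN1, which were called higher. TPM1, an actin-binding tropomyosin, rose 9.68-fold in NCI-H520 and fell 2.21-fold in SJCRH30, for a difference of 4.42 (3.89 to 4.95, adjusted p = 1.67e-09). Genes of basement membranes and collagens were lower in 6 of 24 and higher in 1. Beside NID1, the laminin chain LAMB1 read 12.71, 12.41 and 12.88 in resistant against 11.40, 10.99 and 11.57 in parental SJCRH30 and stayed between 4.23 and 5.56 in NCI-H520, for a difference of -1.93 (-2.67 to -1.18). ITGB3, an integrin chain that binds fibronectin and osteopontin, fell 10.2-fold in SJCRH30, and ITGB1, the chain shared by most fibronectin and laminin receptors, fell 1.74-fold in NCI-H520 and rose 1.61-fold in SJCRH30.

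Among lineage lists, muscle genes had 7 of 45 higher (15.6%) and 6 lower (13.3%), near the 11.8% and 11.3% of all clusters. MYL4 and SRL were among the higher ones. MYOD1, the master factor of muscle, was not called (-0.20, -1.03 to 0.62), and MYOG, its partner in differentiation, fell in SJCRH30 with a difference of 1.06 (adjusted p = 0.0409). In the neuroendocrine and neuronal list, 4 of 25 were higher (16%), among them PCP4, DCX and CALB1, and 6 lower (24%). Targets of the fusion factor PAX3-FOXO1 of alveolar rhabdomyosarcoma had 5 of 17 higher (29.4%), DCX among them, and 2 lower (11.8%). RGS4, a regulator of G protein signalling, read 3.99, 4.36 and 4.25 in resistant against 9.68, 9.91 and 9.97 in parental NCI-H520, and its difference was -5.48 (-6.09 to -4.88, adjusted p = 6.92e-10). Of 21 squamous and desmosome genes, 2 were called (9.52%), fewer than the 23.1% of all clusters. PERP, a desmosome gene that responds to p63, rose 4.15-fold in NCI-H520. PKP2, the desmosome protein plakophilin, differed by 1.31 (0.48 to 2.15, adjusted p = 0.0222), and by 1.14, 1.22, 1.23 and 1.0 without parental NCI-H520 replicate 3, resistant NCI-H520 replicate 2, parental SJCRH30 replicate 2 and resistant SJCRH30 replicate 1, none of which passed.

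Interferon-stimulated genes were called in both directions, 9 of 38 higher and 4 lower. OAS1, which makes the activator of RNase L, read 8.14, 8.15 and 8.89 in resistant against 4.63, 5.09 and 5.34 in parental NCI-H520, and 3.69 to 4.37 over the SJCRH30 arrays, with a difference of 3.20 (2.47 to 3.92, adjusted p = 2.88e-06). HERC5, the ligase for ISG15, rose 3.18-fold in NCI-H520 and fell 3.31-fold in SJCRH30. IFI44 and IFI44L, neighbours on chromosome 1, rose in SJCRH30, by 5.82-fold and 5.25-fold, and were not called in NCI-H520. Their differences were -2.69 (-3.33 to -2.04) and -2.65 (-3.32 to -1.97). In the list of nucleic acid sensing genes, none of 14 was called higher and 3 were called lower, IFI16, TLR3 and RIGI. In all 21.4% of that list was called, near the 23.1% of all clusters. STING1, the adaptor of cytosolic DNA sensing, was not called (-0.39, -1.16 to 0.37).

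In MHC class I presentation 5 of 16 were higher and 1 lower. B2M, the light chain of class I molecules, read 15.35, 15.69 and 15.54 in resistant against 13.41, 13.69 and 13.74 in parental NCI-H520, with 13.29 to 13.94 over the SJCRH30 arrays and a difference of 1.94 (1.35 to 2.53, adjusted p = 5.9e-05). ERAP1, which trims peptides for class I, was the 1 called lower and fell 2.32-fold in NCI-H520. IER3, an early-response gene of NF-kB signalling, rose 10.3-fold in NCI-H520 with a difference of 4.02 (3.35 to 4.69, adjusted p = 7.9e-08), and TNFAIP3, which shuts off that signalling, was an opposite call at 2.69 (2.03 to 3.35). Of their list of 25 genes 12% were called, fewer than the 23.1% of all clusters. The rest of that list held 1 further call, IL1A, at -0.88 (adjusted p = 0.0342), which missed the threshold without parental NCI-H520 replicate 1, resistant NCI-H520 replicates 1 or 2, parental SJCRH30 replicate 1 or resistant SJCRH30 replicates 1 or 2, at -0.73 to -0.89. CD274, which encodes PD-L1, differed by 0.95 (-0.13 to 2.03, adjusted p = 0.211), with parental SJCRH30 arrays at 3.65, 5.65 and 5.44, and passed the threshold, at 1.58, without parental SJCRH30 replicate 1.

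Wnt receptors and modulators were called in 8 of 31 higher and 6 lower. LGR5, a receptor for R-spondins and a stem cell marker of the gut, read 9.20, 9.20 and 8.75 in resistant against 5.36, 4.29 and 4.24 in parental SJCRH30, and 2.60 to 3.79 in NCI-H520, for a difference of -4.48 (-5.38 to -3.57, adjusted p = 7.86e-07). Its relative LGR6 took its difference of -3.11 (-3.99 to -2.23) from a 7.95-fold fall in NCI-H520. WNT5A, a ligand of the noncanonical branch, rose 4.34-fold in NCI-H520 and was not called in SJCRH30.

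Targets of p53 were lower in 7 of 20 (35%) and higher in 3. Beside CDKN1A, the BH3-only gene PMAIP1 fell 3.21-fold in NCI-H520, with a difference of -2.52 (-3.38 to -1.66), and the death receptor TNFRSF10B and the nuclease AEN fell there and rose in SJCRH30. TIGAR, a regulator of glycolysis, was the opposite call in the other orientation at 1.97 (1.37 to 2.58). CFLAR, the caspase-8 inhibitor FLIP, had the largest difference among apoptosis genes, 4.09 (3.46 to 4.73, adjusted p = 3.5e-08), and took it from SJCRH30, where it read 6.70, 6.30 and 6.05 in resistant against 10.27, 9.76 and 10.41 in parental cells.

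Detoxification genes were called in 8 of 24 higher (33.3%) and 5 lower (20.8%). None was an opposite call, a class that held just 3% of all clusters. CES1, a liver carboxylesterase, rose 23.3-fold in NCI-H520, to 14.10, 14.39 and 14.77 against 9.37, 10.25 and 10.02, with a difference of 4.59 (3.80 to 5.38, adjusted p = 1.18e-07). AKR1C2 fell 7.43-fold in NCI-H520 and 1.75-fold in SJCRH30, so it differed in size and not in direction (-2.09, -2.64 to -1.54). Parental cells averaged 15.51 in NCI-H520 but just 5.62 in SJCRH30, where resistant cells averaged 4.81. Whether that low signal limits the fall seen in SJCRH30 was not tested. AKR1C2 is a close paralogue of AKR1C3. SCD, the stearoyl-CoA desaturase, was the 1 opposite call of the lipid synthesis list at 2.16 (1.53 to 2.79), and FADS2, a fatty acid desaturase, fell 5.63-fold in NCI-H520. In the list of retroviral envelopes and their receptors, ERVW-1 was joined by SLC1A4 and SLC1A5, amino acid transporters that serve as syncytin receptors. SLC1A4 fell 5.45-fold in NCI-H520 and rose 1.67-fold in SJCRH30, with a difference of -3.19 (-3.90 to -2.47, adjusted p = 2.53e-06). Among MYC and ribosome biogenesis genes 1 of 24 was higher and 4 were lower, MYC itself with a 1.08 log2 fall in NCI-H520. In all 20.8% of that list was called, near the 23.1% of all clusters. MYCN was not called (0.25, -0.46 to 0.96).

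Called differences were unevenly spread over chromosomes, by the positions that RefSeq gives their genes. Chromosome 9 had 19.5% of 711 clusters called higher and 5.49% lower, and chromosome 19 had 14.6% of 1256 higher and 2.47% lower. In the other direction, chromosome 7 had 3.62% of 800 higher and 22.2% lower, and chromosome 18 had 6.4% of 250 higher and 27.2% lower. Chromosome 17 lay near the background, with 9.28% and 9.57%. Genes of a chromosome are not independent, copy number was not measured, and its part in these shares was not tested.

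**Figure D5:**
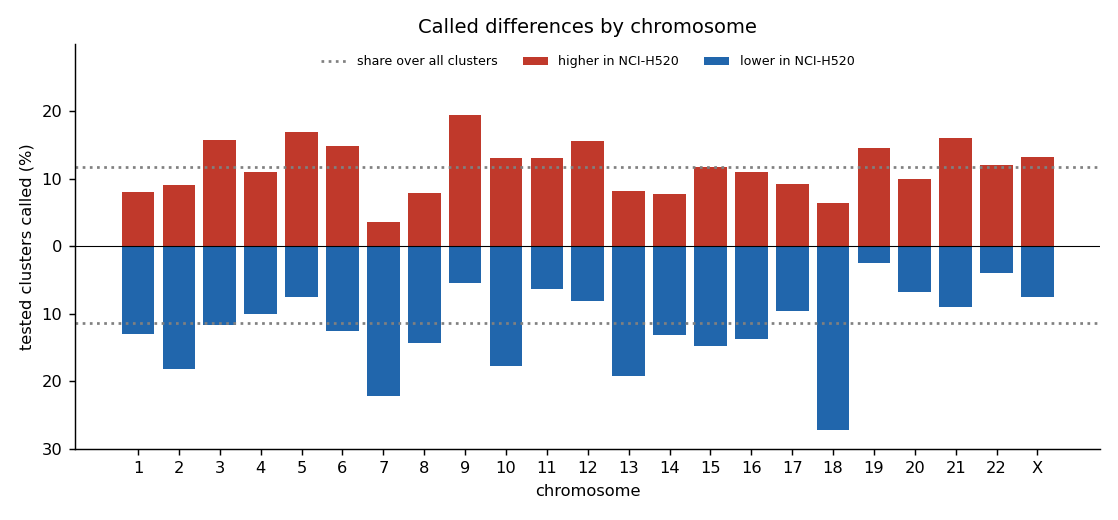
Percent of the tested clusters of each chromosome with a called difference, higher in NCI-H520 in red upward and lower in NCI-H520 in blue downward; dotted lines mark the shares over all clusters (11.8% and 11.3%). Chromosomes 9 and 5 stand out upward at 19.5% and 16.9%, and chromosomes 18 and 7 downward at 27.2% and 22.2%.

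Runs of neighbouring genes moved together. In windows of 15 neighbouring tested genes, chosen for their counts and therefore given without a test, 12 of 15 from SLC35D2 to TRMO on chromosome 9 were called higher, with a median change of 1.44 in NCI-H520 and -0.333 in SJCRH30. This run holds the repair gene XPA. Another 12 of 15 were called higher from SYK to ZNF484 on the same chromosome. From DOCK11 to NKAP on the X chromosome 10 of 15 were higher, but there the median change was 0.319 in NCI-H520 and -1.47 in SJCRH30. From CABLES1 to TAF4B on chromosome 18, 10 of 15 were lower, with medians of -0.728 and 0.443, and from ZMAT3 to DNAJC19 on chromosome 3, 10 of 15 were lower, with medians of -0.47 and 0.598. Within the named lists, SCD and NDUFB8 lay in a run on chromosome 10 from ENTPD7 to HIF1AN with 11 of 15 called higher.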

How the data were processed

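RNA was extracted with a Direct-zol kit, biotin-labelled with the WT Plus kit and hybridised to Clariom S human arrays. The authors deposited log2 values summarised by RMA for each transcript cluster, and which RMA version was used is not stated in the sources used here. Genes were named through the platform annotation, and 17709 of 21448 clusters with exactly 1 symbol were kept. Groups came from the sample labels.

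The 4 group means were fitted over 12 arrays by lmFit and eBayes of limma (version 3.58.1, under R 4.3.3), and the difference of the changes was the interaction contrast. P-values were adjusted by the Benjamini-Hochberg method over all 17709 clusters, and calls needed an adjusted p under 0.05 and over 1.5-fold. For the difference the fold condition removed no call. The adjusted p alone gave the same 4085, and the smallest called difference was 0.655 log2 units. Intervals are 95% intervals of that fit. The p-values measure the spread between the 3 arrays of a group. The script was tested on simulated data. There it recovered 17 of 100 differences of 1 log2 unit and 80 of 100 of 2 log2 units, with 7 false calls. A difference that was not called may thus still be present.

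Genes were named as the 12 largest called differences in each direction. These came from calls whose resistant and parental arrays did not overlap in the line with the larger change. Also named were 6 opposite calls each way by the smaller of the 2 changes, and 4 shared changes each way. Up to 2 calls of each list in each direction were named by size. A panel of 33 genes was named too. It held checkpoint, cell cycle and replication genes, and also epithelial, mesenchymal, matrix, retroviral, immune and muscle genes. Other genes named were chosen after their values were seen. The members and lists were chosen with earlier results of these data known. Promoters were RefSeq windows. Some markers were not analysed here. The alternatives were other variance models, filters, thresholds, scales and replicate blocks, and leaving out each array in turn.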

Additional observations from a re-analysis of the deposited data

Results flagged for a closer look

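The test of the interaction itself put 2086 clusters higher and 1999 lower in NCI-H520, and the changes of the lines were called in opposite directions in 532. Of the opposite calls, the 6 higher in NCI-H520 with the largest smaller change of the 2 lines had differences of 6.57 for PLEKHG1, 5.69 for FRMD3, 5.46 for TMEFF2, 4.56 for HS3ST3B1, 4.39 for CD9 and 4.03 for HS3ST3A1. The 6 lower in NCI-H520, chosen in the same way, had differences of -7.42 for FN1, -6.44 for F13A1, -5.53 for MMP2, -4.92 for IFI16, -4.53 for ADGRL3 and -4.44 for GALNT13.

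The Rh41 arrays, used above only for their value scale, were fitted by themselves on that scale. A resistant minus parental change in Rh41 was called for 13.8% of the clusters whose change differed between NCI-H520 and SJCRH30, with 381 rises and 183 falls, against 8.78% of all tested, with 1008 rises and 546 falls. The share was 23.9% of clusters that rose in both lines, with 35 rises and 28 falls in Rh41. It was 16% of those that fell in both, with 26 rises and 20 falls. Rh41 thus moved both ways within each of these sets. Opposite calls had 15% (up in NCI-H520) and 18.6% (down in NCI-H520). Clusters with all 4 means under 5 made up 3.6% of called differences and 28.6% of all tested, so these shares do not compare like clusters. Among genes that rose in SJCRH30 and not in NCI-H520, IFI44, IFI44L and LAPTM5 were also called rises in Rh41, with changes of 3.66, 4.99 and 2.86 log2 units. NID1, LGR5 and ERVW-1 were called falls there, with changes of -2.32, -2.19 and -0.707.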

How the results depend on the processing

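The limits come from 3 arrays a group, 1 selected population a line and a value scale of uncertain stretch. Differences tested against 1.5-fold itself (treat) left 845 higher and 781 lower calls, 1117 with a change in 1 line, 52 opposite, 3 in the same direction with a called difference and 35 without. With values mapped onto the Rh41 scale these counts were 1352, 1277, 1655, 121, 19 and 102. A 2-fold threshold gave 130 opposite calls, 18 in the same direction with a called difference and 116 without, and the fit over all 20 arrays gave 166 in the same direction with a called difference. Leaving out each array in turn gave 1855 to 1983 higher, 1790 to 1880 lower, 2813 to 2934 with a change in 1 line, 409 to 504 opposite, and 67 to 95 and 371 to 437 in the same direction with and without a called difference. The replicate numbers did not pair the samples (residual correlations of same-numbered arrays 0.083, 0.11 and 0.044 in NCI-H520, and 0.12, -0.015 and 0.018 in SJCRH30), and with the replicate number as a block within each line 4089 differences were called, 3857 of them shared. Scaling the changes of the lines to equal spread, chosen after seeing the data, called 4090, with 3887 shared. No named gene reversed under any alternative run. Of 140 named genes, 24 lost their call under at least 1 of them and 3, RPA2, PPARGC1A and CD274, gained one. Of the 29 gene lists, 18 had a median difference that moved under at least 1 alternative. Moving meant a shift of at least the pooled standard deviation of the list median between arrays of a group. Over all lists and alternatives, 46 medians moved and 708 did not.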
